A study of Rattus norvegicus with 8 samples.

Results

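Transcripts of 43 genes for subunits of glutamate, GABA and glycine receptors were examined in a PC12 line that carries an inducible mutant fragment of human huntingtin. The genes were chosen by symbol, from the probe sets assigned to exactly 1 gene: 72 of the 7006 such probe sets belonged to these 43 of 4736 genes. Each gene was read from its probe set with the highest mean signal over the 8 arrays. The rule itself uses gene symbols and no measured difference between the groups.

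PC12 is a cell line from a rat adrenal medullary tumour, and the labels name the derived line Htt14A2.5. All 8 samples carry the same transgene, an inducible, truncated first exon of mutant human huntingtin. The 4 samples titled +PA were induced with ponasterone, a steroid inducer, for 48 h, and the 4 samples titled -PA were uninduced. Each set is numbered 1 to 4. Since no sample lacks the transgene, effects of the inducer and of the fragment cannot be told apart here. The free-text descriptions of all 8 mention the inducer, so the titles set the groups; the source of the replicates numbered 2 in both groups is worded differently from the rest. Whether the line is 1 clone, and whether the replicates were separate cultures, is not given in the sources used here, so the p-values measure the spread between these samples, which may be technical.

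Glutamate is the main excitatory transmitter of the brain, and GABA and glycine are the main inhibitory ones. Each acts on channels built of several subunits, which open when the transmitter binds, and glutamate and GABA also act on receptors that signal through G proteins. A channel of these families needs a defined mix of subunits, so a transcript of 1 subunit does not tell whether a receptor is made. PC12 cells derive from chromaffin cells, which release catecholamines and belong to the sympathetic lineage.

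Every array held 1 scaled signal per probe set, with no call of whether a transcript was detected. The level of unspecific signal was taken from 38 of the array's own controls, which carry foreign or antisense sequence; their 95th percentile lay between 102 and 183 on the 8 arrays. "Above background" here means above that percentile on the same array, and a gene that is not above it may still be transcribed. Each probe set binds its target with its own strength. Signals of different probe sets are therefore compared only to choose 1 per gene and to set each against the controls. That limit applies to both steps, and so to the counts above background. Of 13 measured chromaffin and PC12 markers 8 were above background on all arrays, among them Chgb, Phox2a and Prph. Of the transmitter enzymes, Pnmt was above on all arrays (142.6 to 234), but Th, Dbh and Ddc were not. Th was above on 1 array (32.5 to 164.1), and Dbh (at most 16.8) and Ddc (at most 43.3) on none. Of the markers of other cell types, Col1a1, Col3a1, Pmp22 and Cd4 were above background on all arrays, and 16 others were not.

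Of the 43 receptor subunit genes 8 were above background on all 8 arrays (18.6%, against 45.2% of all genes of the table). These were the NMDA receptor genes Grin1, Grin2a, Grin2b, Grin2c and Grin2d, the kainate receptor gene Grik5, the GABA-B receptor gene Gabbr1 and the GABA-A receptor gene Gabrd. A further 4 were above on some arrays: Grm4 on 5, and Gabra3, Gabrr1 and Grin3a on 1 each. The other 31 were not above background on any array. The count of 8 was the same when the highest of the 38 controls replaced their 95th percentile. Each gene was already read from its brightest probe set, so allowing any of its probe sets to stand for it could hardly change the count, which stayed at 8. Of these 8 genes, only Gabbr1 and Grin2c had a second probe set above background on all arrays. Grin2b and Grik5 had no other probe set.

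**Figure D1:**
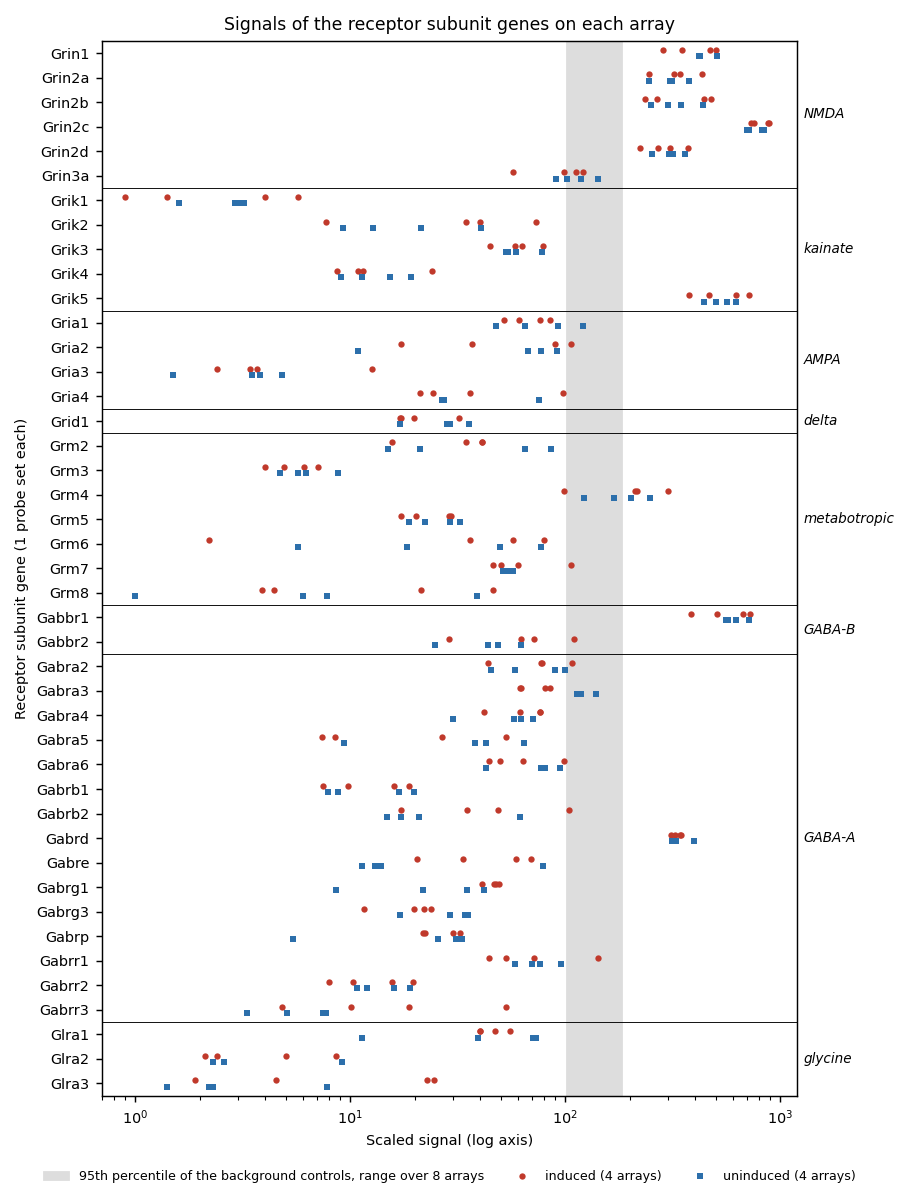
Scaled signal (log axis) of each of the 43 receptor subunit genes on the 4 induced (circles) and 4 uninduced (squares) arrays, 1 probe set per gene, ordered by receptor family; the grey band is the range over arrays of the 95th percentile of the background controls (102 to 183). The points of 8 genes lie wholly to the right of the band, those of Grm4 straddle it, and induced and uninduced points overlap for all genes above background.

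No receptor subunit gene was called between induced and uninduced cells. Of the 43 genes 27 passed the filter on low signal, a mean over the 8 arrays of at least 36.0, and entered the limma fit. None of the 27 passed the Benjamini-Hochberg adjusted threshold of 0.05 in either direction while 433 of all 6129 tested probe sets did (7.06%). Only 8 of the 27 were above background on all arrays, with a median SE of 0.18. The other tested genes had a median SE of 0.36, against 0.20 over all tested probe sets, so their differences were measured less precisely. By direction, 0 of 27 were called higher, against 4.1% of all, and 0 of 27 lower, against 2.97%. In RNA from whole cultures, fewer cells with a transcript and less of it per cell cannot be told apart. At an unadjusted p under 0.05 there was 1 of 27, Gabra3, against 18% of all tested probe sets. The groups did not overlap in 1 of 27, again Gabra3, against 13.6% of all tested probe sets; in 7.11% of all the induced group was the lower one, as in Gabra3. The difference, induced minus uninduced on the log2 scale, was positive in 15 and negative in 12, with a median of 0.05 against -0.05 over all tested probe sets. That small median moved with single arrays. It was -0.11 without induced replicate 4 (8 positive, 19 negative), against -0.08 over all tested probe sets, of which 39.2% were positive. It was -0.04 without uninduced replicate 2, -0.01 without uninduced replicate 3 and -0.03 without the replicates numbered 2 of both groups. Over all tested probe sets the medians there were -0.06, -0.07 and -0.03 in turn. Other settings raised the median of the 27, to 0.11 without uninduced replicate 4 and 0.08 without induced replicate 1. With median centring of the arrays it was 0.09, and with quantile normalization 0.08. All tested probe sets had medians of -0.02, -0.01, -0.01 and -0.03 in these settings, in turn.

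**Figure D2:**
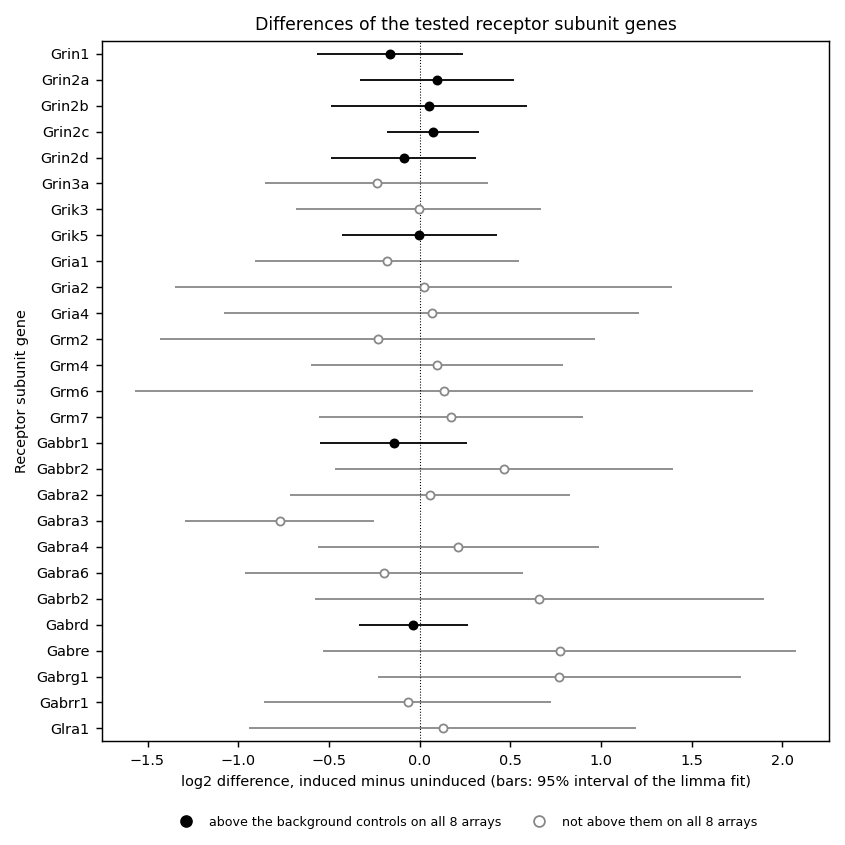
log2 difference, induced minus uninduced, of the 27 tested receptor subunit genes, with the 95% interval of the limma fit as bars; filled points mark genes above the background controls on all 8 arrays and open points the others. The 8 filled points lie between -0.16 and 0.10 with narrower bars than most open points, and Gabra3 is the only gene whose bar does not reach 0.

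The NMDA receptor is a channel that opens when glutamate and glycine bind together. Grin1 encodes its obligatory glycine-binding subunit. Its signals were 283.4, 349.4, 504.0 and 473.3 on induced arrays 1 to 4 and 510.5, 417.4, 417.0 and 423.6 on uninduced arrays 1 to 4. Induced replicates 1 and 2 were the lowest and the groups overlapped. The means were 403 ± 104 and 442 ± 45.7 (SD, n = 4 each), and the log2 difference was -0.16 ± 0.18 (SE; limma adjusted p = 0.736), with a 95% interval from -0.57 to 0.24.

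The start of Grin1 is shown because it was the 1 promoter among those of the genes above background with a match to the Egr motif, and Egr1, an early response zinc finger factor, rose in the induced cells. The Egr1 probe set with the highest mean signal rose by 1.83 ± 0.12 on the log2 scale (limma adjusted p = 2.45e-06). It was above background on all arrays, with 2267.6 to 2783.1 induced and 569.8 to 821.7 uninduced. Of its 3 others, 2 were also called higher but lay at or near background on most uninduced arrays, and 1 of these was called in 12 of 16 alternatives; the last was not called (0.28). The Grin1 window, from RefSeq in build GRCr8, is chr3:28528705-28529004 on the minus strand and runs from 250 bases before to 50 bases after the gene's start. The motif searched was GCGNGGGCG on both strands, and its match, from base 276 of 300, is in capitals; 1 match to the Sp1 motif GGGCGG overlaps it. The window of Gabra3, the gene with the lowest p of the 27, is chrX:155543821-155544120 on the minus strand; it is shown for contrast and holds no match.
Grin1: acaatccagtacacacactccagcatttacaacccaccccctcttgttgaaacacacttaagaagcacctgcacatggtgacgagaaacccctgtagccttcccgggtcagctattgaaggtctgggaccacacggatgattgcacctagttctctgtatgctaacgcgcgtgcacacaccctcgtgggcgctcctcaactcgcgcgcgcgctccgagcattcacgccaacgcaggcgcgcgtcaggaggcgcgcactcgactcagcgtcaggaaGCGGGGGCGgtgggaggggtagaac
Gabra3: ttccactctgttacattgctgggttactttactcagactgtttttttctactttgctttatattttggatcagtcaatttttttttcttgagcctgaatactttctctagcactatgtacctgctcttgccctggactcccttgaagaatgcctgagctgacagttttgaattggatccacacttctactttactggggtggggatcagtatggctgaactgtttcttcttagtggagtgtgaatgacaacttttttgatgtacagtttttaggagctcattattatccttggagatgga

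Of the 43 genes 31 had such a window. The Egr motif was found in 4 of them (Grin1, Gabra4, Glra3 and Gria4) and in 5.29% of all 27457 windows, 1 per gene; the Sp1 motif was found in 13 of the 31 and in 34.9% of all. A match is a run of letters and not a shown binding site, and no match says only that these letters are not in this window. The Grin1 window holds 25 CG dinucleotides and the Gabra3 window 0. The 6 windows of genes above background held 11 to 40 (median 18), the 25 others 0 to 49 (median 9), and all windows had a median of 7. The ranges overlap, and Grik3 (49) and Gabbr2 (47), neither above background on any array, held the most.

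The Grin2 genes encode the glutamate-binding subunits that join Grin1 and set the channel's kinetics. Grin2a signals were 244.2, 343.1, 320.8 and 434.0 on the induced arrays and 375.2, 245.4, 306.8 and 314.3 on the uninduced arrays, in the order of replicates 1 to 4 (means 336 ± 78.1 and 310 ± 53.1, SD, n = 4 each). For Grin2b they were 234.5, 268.0, 439.6 and 478.5 against 250.7, 346.8, 300.7 and 436.3 (355 ± 122 and 334 ± 78.9). Induced replicate 4 held the highest signal of both genes, and the groups overlapped in both. The log2 difference was 0.10 ± 0.19 for Grin2a (interval -0.33 to 0.52) and 0.05 ± 0.25 for Grin2b (interval -0.49 to 0.59).

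Grin2c, known best from cerebellar granule cells, gave 753.6, 887.2, 728.5 and 872.4 on the induced and 821.1, 702.3, 838.7 and 717.4 on the uninduced arrays (810 ± 81.0 and 770 ± 69.95, SD, n = 4 each). Its log2 difference was 0.07 ± 0.12 (interval -0.18 to 0.32), which had the narrowest interval of the 27 genes. Grin2d, prominent early in development, gave 222.2, 270.8, 307.4 and 370.5 on the induced and 362.4, 303.8, 315.9 and 253.9 on the uninduced arrays (293 ± 62.5 and 309 ± 44.6). Its difference was -0.09 ± 0.18 (interval -0.49 to 0.31). The groups overlapped in both genes, and the limma adjusted p of the 4 Grin2 genes lay between 0.837 and 0.955. Grin3a, a glycine-binding subunit that lowers calcium flow through the channel, ranged from 57.2 to 142.1 and differed by -0.24 ± 0.28.

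Several of these readings rested on 1 of a gene's probe sets. Grin1 had 4 probe sets; the other 3 had mean signals of 45.6, 29.4 and 27.8 and were not above background on any array. The second Grin2a probe set had a mean of 11.1 and was likewise never above. The second Grin2c probe set was above background on all 8 arrays, with 158.3 to 207.9 on the induced and 193.6 to 268.4 on the uninduced arrays; its log2 difference was -0.30 ± 0.18 (limma adjusted p = 0.426). The second Grin2d probe set was above on 1 array only, and Grin2b had no other probe set. Among the receptor genes not above background on all arrays, no second or further probe set was above it on any array. Probe sets of 1 gene can match different stretches or splice forms of its transcript, and which of them reads the transcript best was not tested.

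**Figure D3:**
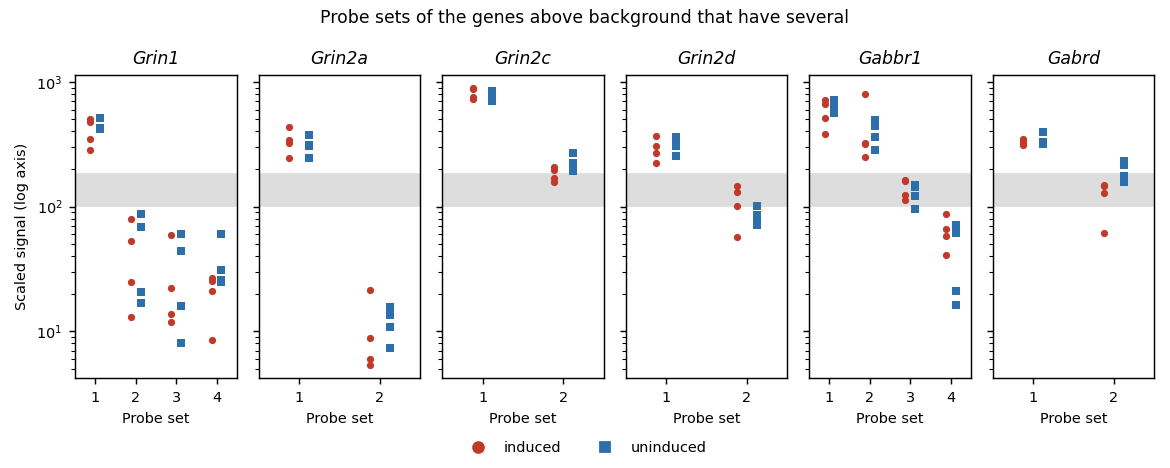
Scaled signal (log axis) of every probe set of the 6 genes above background that have several, numbered within each gene by falling mean signal, on the 4 induced (circles) and 4 uninduced (squares) arrays; the grey band is the range of the background controls' 95th percentile. Second probe sets lie above the band for Gabbr1, within or above it for Grin2c, from below to above it for Gabrd, below or within it for Grin2d, and below it for Grin1 and Grin2a.

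Kainate receptors are a second family of glutamate-gated channels. Grik5 encodes a high-affinity subunit that forms channels only with a partner from Grik1, Grik2 or Grik3. Grik5 signals were 375.4, 465.7, 620.3 and 713.4 on the induced and 620.6, 441.0, 568.0 and 499.9 on the uninduced arrays (544 ± 152 and 532 ± 78.4, SD, n = 4 each). The induced arrays held both the lowest and the highest value. The log2 difference was -0.0012 ± 0.19 (limma adjusted p = 0.999), with an interval from -0.43 to 0.42. Of its partners, Grik3 reached at most 78.9, Grik2 at most 73.1 and Grik1 at most 5.7, and none was above background on any array, nor was Grik4 (at most 23.9).

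AMPA receptors carry fast excitatory transmission. None of their 4 genes was above background on any array, on any of their 10 probe sets. The brightest values were 121.5 for Gria1 (uninduced replicate 4), 106.9 for Gria2 (induced replicate 1), 97.4 for Gria4 (induced replicate 4) and 12.6 for Gria3 (induced replicate 3). Gria2, whose subunit keeps calcium out of AMPA channels, had a second probe set with signals of 6.3 to 39.7 on the induced and 39.4 to 62.9 on the uninduced arrays. The log2 difference there was -1.09 ± 0.52, and it was not called (limma adjusted p = 0.306). Its main probe set differed by 0.02 ± 0.63, so the probe sets gave different sizes at signals within the controls' range. Grid1, of the delta family, ranged from 17.0 to 35.7 and was not tested.

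Metabotropic glutamate receptors signal through G proteins. Of 7 measured genes Grm4, of the group that lowers cyclic AMP and sits on nerve terminals, came closest to the criterion. Its signals were 216.4, 98.6, 210.6 and 300.5 on the induced and 168.6, 201.9, 122.5 and 248.4 on the uninduced arrays (207 ± 82.9 and 185 ± 53.2, SD, n = 4 each). It was above background on 5 arrays and below on induced replicate 2 and uninduced replicates 1 and 3. The log2 difference was 0.09 ± 0.32 (limma adjusted p = 0.931; interval -0.60 to 0.79). It was 0.40 without induced replicate 2, -0.11 without induced replicate 4 and 0.46 without the replicates numbered 2 of both groups, and was called in none of these. Grm2, Grm3, Grm5, Grm6, Grm7 and Grm8 were not above background on any array, with highest values of 85.6, 8.8, 32.3, 79.7, 105.8 and 46.1 in turn.

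The GABA-B receptor works as a pair: the Gabbr1 subunit binds GABA, and the Gabbr2 subunit couples to the G protein and brings Gabbr1 to the cell surface. Gabbr1 signals were 509.3, 385.2, 668.5 and 721.9 on the induced and 624.0, 572.4, 712.5 and 558.2 on the uninduced arrays (571 ± 153 and 617 ± 69.8, SD, n = 4 each). The groups overlapped, and the log2 difference was -0.14 ± 0.19 (limma adjusted p = 0.778; interval -0.55 to 0.26). Its second probe set was also above background on all arrays, from 248.9 to 800.2, and differed by -0.02 ± 0.31; without induced replicate 4, which held the 800.2, that difference was -0.38. The third was above on 5 arrays and the fourth on none. Gabbr2 was not above background on any array on any of its 3 probe sets. Its main probe set gave 62.0, 71.3, 28.9 and 109.5 on the induced and 43.7, 24.8, 48.5 and 62.5 on the uninduced arrays, a difference of 0.47 ± 0.43 (adjusted p = 0.657).

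GABA-A receptors are chloride channels built mainly of alpha and beta subunits with a further kind, such as gamma or delta. Of 15 measured genes only Gabrd, the delta subunit of receptors outside synapses, was above background on all arrays. Gabrd signals were 311.4, 322.7, 345.6 and 343.2 on the induced and 321.0, 328.0, 396.2 and 314.8 on the uninduced arrays (331 ± 16.5 and 340.0 ± 37.9, SD, n = 4 each). The difference was -0.03 ± 0.14 (limma adjusted p = 0.944; interval -0.33 to 0.26). Its second probe set read otherwise, with 128.1, 149.9, 61.8 and 147.2 induced against 157.9, 217.2, 230.6 and 176.2 uninduced. There all 4 induced values lay below all 4 uninduced ones, the difference was -0.71 ± 0.28, and the call was not made (adjusted p = 0.195). Groups did not overlap in 2 of the 39 tested probe sets of the receptor genes, against 13.6% of all tested probe sets.

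Gabra3, an alpha subunit, had the lowest p of the 27 genes. Its signals were 80.5, 85.2, 62.2 and 61.5 on the induced and 139.2, 118.8, 113.8 and 138.9 on the uninduced arrays (72.4 ± 12.3 and 128 ± 13.3, SD, n = 4 each). Every induced value was lower than every uninduced one, but only uninduced replicate 4 was above background. The difference was -0.77 ± 0.24 (interval -1.29 to -0.25) and it did not pass (limma adjusted p = 0.0845). Over the 16 alternative settings it stayed between -0.88 and -0.62 with adjusted p from 0.0239 to 0.212, and the fit without an intensity trend was the 1 setting that called it. A second Gabra3 probe set read 2.2 to 6.7 on the induced and 5.5 to 9.8 on the uninduced arrays, too low to be tested.

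The other GABA-A genes gave no alpha, beta or gamma subunit above background on any array. Gabra2, Gabra4, Gabra6 and Gabrb2 reached at most 107.8, 76.1, 98.3 and 104.0, and Gabrg1 at most 49.0. Gabrg1 (45.95 ± 3.58 induced and 26.8 ± 14.7 uninduced) and Gabre (45.6 ± 22.5 and 29.3 ± 33.1, SD, n = 4 each) differed by 0.77 ± 0.46 and 0.77 ± 0.60, neither called (limma adjusted p = 0.428 and 0.571). Gabrb2, a beta subunit, differed by 0.66 ± 0.57 (adjusted p = 0.626) and by 0.53 on its second probe set. These values moved with single arrays, at signals never above background: without any 1 array Gabrg1 ranged from 0.44 (without uninduced replicate 1) to 0.99 (without uninduced replicate 4), Gabre from 0.56 (without induced replicate 4) to 1.30 (without uninduced replicate 4) and Gabrb2 from 0.28 (without induced replicate 4) to 1.03 (without uninduced replicate 1). Gabrr1, a rho subunit known from the retina, was above background on induced replicate 3 only (141.6). Gabra5, Gabrb1, Gabrg3, Gabrp, Gabrr2 and Gabrr3 had means under the filter and were not tested. The members formed 5 pairs of adjacent genes in the rat reference list (Gabra2 with Gabrg1, Gabra4 with Gabrb1, Gabra6 with Gabrb2, Gabra5 with Gabrg3, Gabrr1 with Gabrr2), and no gene of these pairs was above background on all arrays.

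Glycine receptors are chloride channels of the spinal cord and brainstem. Their alpha subunit genes Glra1, Glra2 and Glra3 were not above background on any array. The main Glra1 probe set ranged from 11.4 to 73.2 and differed by 0.13 ± 0.49. A second one gave 17.0, 60.6, 88.3 and 108.2 on the induced and 20.7, 22.7, 21.5 and 21.7 on the uninduced arrays, so induced replicate 1 lay below all uninduced arrays and the other induced ones above. It differed by 1.18 ± 0.51 and was not called (limma adjusted p = 0.245). Without induced replicate 1 it differed by 1.66 and was called (limma adjusted p = 0.0406). Every value lay below the background level of its array.

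The width of the intervals shows what these 4 against 4 arrays could resolve. For the 8 genes above background the 95% interval reached 0.25 (Grin2c) to 0.54 (Grin2b) to either side of the log2 difference. Their median SE was 0.18, and that of the 19 other tested genes was 0.36. The widest interval of the 27 was that of Grm6, from -1.57 to 1.84. The 8 genes were called in none of the 16 alternative settings.

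Induced replicate 4 held the highest signal of the receptor genes more often than any other array. Of the 43 genes 18 (41.9%) had their highest signal on induced replicate 4, against 23.7% of all genes of the table; of the 8 above background 5 did. Uninduced replicate 2 was the highest for none of the 43, against 9.04% of all genes. The median signal of all probe sets was likewise highest on induced replicate 4 (134.9, the others 97.5 to 127.0), and the median of the 43 receptor genes was 71.5 there and 29.2 to 64.3 on the others. The part of this array level in single differences was not tested; without induced replicate 4 none of the 27 genes was called.

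**Figure D4:**
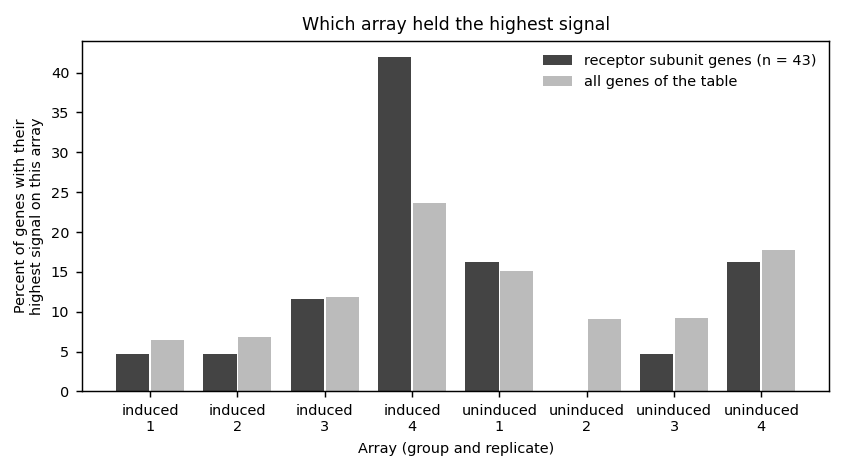
Percent of genes whose highest signal of the 8 arrays fell on each array, for the 43 receptor subunit genes (dark bars) and for all 4736 genes of the table (light bars), by group and replicate. Induced replicate 4 holds the highest signal of 41.9% of the receptor genes and 23.7% of all genes, and uninduced replicate 2 that of none of the receptor genes.

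Genes that make, move or anchor these receptors and their transmitters were read from a list of 82 symbols. Of these 58 were measured and 25 (43.1%) were above background on all arrays, against 45.2% of all genes of the table. Among the anchoring and signalling proteins these included Gphn, the scaffold of glycine and GABA-A receptors, and Gabarap, which carries GABA-A receptors. They also included the postsynaptic scaffolds Dlg4, Homer1, Homer2 and Shank2, and the kinase subunits Camk2b, Camk2d and Camk2g. Other members of these scaffold and kinase families fell short: Dlg1 was above on 6 arrays, Shank1 on 5 and Homer3 on 3. Dlg2, Dlg3 and Camk2a were not above background on any array. Gad1 (at most 10.5) and Gad2 (at most 52.0), which make GABA, and the vesicular glutamate transporter Slc17a7 (at most 25.4) were not above background on any array, and the vesicular GABA transporter Slc32a1 was on 1. Slc6a9, which takes up glycine, and Slc6a11, which takes up GABA, were above on all 8.

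In that list 3 of 45 tested genes rose and 0 fell (6.67% called, against 7.06% of all probe sets), with a median log2 difference of -0.03. Camk2d, a calcium-dependent kinase subunit, read 1722, 1456, 1771 and 1568 induced against 1070, 1063, 1104 and 1316 uninduced, a rise of 0.52 ± 0.11 (limma adjusted p = 0.0116). Its other 3 tested probe sets were not called (0.51, 0.11 and -0.02). Glul, which turns glutamate into glutamine, read 1158 to 1417 induced and 866 to 1121 uninduced; it rose by 0.43 ± 0.11 (adjusted p = 0.0381), and its 3 other probe sets differed by 0.42 to 0.60 without passing. Grina, a membrane protein once purified with a glutamate-binding complex and not a receptor subunit, rose by 0.49 ± 0.13 (adjusted p = 0.0430), although the groups overlapped, and its second probe set by 0.61 (adjusted p = 0.0024). Got2, the mitochondrial aspartate transaminase, differed by -0.38 ± 0.11 and was not called (adjusted p = 0.0526), and its second tested probe set differed by -0.06 (adjusted p = 0.837). Got2 was called in 2 of the 16 alternatives, quantile normalization (adjusted p = 0.0184) and without induced replicate 2 (0.0183).

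These 3 calls depended on the setting. Over 16 alternatives, read on the main probe set of each gene, Camk2d was called in 13, Glul in 7 and Grina in 5. The second Grina probe set, which was also called in the main fit, was not examined over these alternatives. Of the 8 fits that left out 1 array each, Camk2d passed in all, Glul only in those without uninduced replicate 1 or induced replicate 4 (adjusted p = 0.0199 and 0.0333, otherwise 0.0687 to 0.121), and Grina only in those without uninduced replicate 1 or induced replicate 1 (0.0260 and 0.0322, otherwise 0.0687 to 0.137). Median centring of the arrays ended all 3 calls (adjusted p = 0.0678, 0.230 and 0.0882), while the log2 differences were 0.55, 0.47 and 0.52, against 0.52, 0.43 and 0.49 before.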

How the data were processed

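RNA of 8 samples was measured on 1 Affymetrix rat array each. The authors deposited 1 linear intensity per probe set and array, for 8799 probe sets. The 2% trimmed mean lay between 500.78 and 500.85 on every array, so the deposited intensities had been scaled to a common level; no source used here names the program or any earlier step. No raw image or detection call was used. Precision is limited by having 4 arrays a group.

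Gene symbols came from GEO's annotation table of the array, in which 7018 probe sets had exactly 1 symbol (12 of them controls), 308 had more than 1 and 1473 had no symbol. All 43 members matched the rat reference list (GRCr8) by gene identifier, with the same symbol. Promoter windows came from RefSeq and held 31 of the 43.

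A constant of 7 was added to each signal before taking log2, so folds of low signals are understated. Controls (59) and the 2611 probe sets with a mean under the 30th percentile were left out. Induced minus uninduced was fitted over the remaining 6129 probe sets with limma 3.58.1 in R 4.3.3 (lmFit, eBayes with an intensity trend; 6 residual and 5.77 prior degrees of freedom), 2-sided, with Benjamini-Hochberg adjustment over all 6129. Errors of log2 differences are SEs of this fit, and errors of signals are SDs. The 16 alternatives changed the constant, filter, scaling, trend, replicate block or arrays used.

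Members named with values were those above background on all arrays, the 6 with the lowest p, and those with several probe sets; of the related genes, those called and the 4 with the lowest p. Grm4, above background on 5 arrays, was added after its values were seen. Other genes appear for counts and ranges, chosen after their values were seen. The members, the lists and this rule were chosen with earlier results of these data known.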

Additional observations from a re-analysis of the deposited data

Results flagged for a closer look

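Among the 39 tested probe sets of the receptor genes, 7 of 78 groups of 4 arrays held a value far from the other 3, with a gap to the nearest beyond Dixon's 95% critical value; chance gives about 5% of groups. Among genes above background these were Grin1 on uninduced replicate 1 (510.5, the next 423.6), Gabrd on uninduced replicate 3 (396.2, the next 328.0) and the second Gabbr1 probe set on induced replicate 4 (800.2, the next 325.1). The others lay within the range of the controls: Gabre on uninduced replicate 4 (79.0, the next 13.9), Gria4 on the same array (75.8, the next 27.4), Gabrb2 on uninduced replicate 1 (61.3, the next 20.9) and a second Grin3a probe set on uninduced replicate 3 (98.7, the next 35.0). In all 7 the distant value was the highest of its group.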

How the results depend on the processing

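On 1 probe set per gene, no receptor subunit gene was called with a constant of 1 or 32 or with no filter (43 tested). None was called with median centring, quantile normalization or a replicate block, nor without any 1 array or the replicates numbered 2. Without an intensity trend 1 was called, Gabra3. A second Glra1 probe set was called without induced replicate 1. The count of all called probe sets was 433 (251 higher, 182 lower), 229 with median centring (166 and 63), 279 without a trend, 221 without the replicates numbered 2, and 313 to 408 without any 1 array, with 119 lower without uninduced replicate 2 and 112 without uninduced replicate 3. Of 624 values of the 39 tested probe sets under 16 settings, 69 had the other sign, none of them called, and 2 moved by over 1 SE (Grm4 without the replicates numbered 2, and the second Gabbr1 probe set without induced replicate 4). With a replicate block 367 probe sets were called; same-numbered samples correlated at -0.144, 0.058, -0.085 and 0.191, and 1 of 4 induced samples correlated best with its own number, so the numbers were not taken as pairs. Signal over background limits 35 of the 43 genes, and 16 were too low to be tested.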
